A study of Drosophila melanogaster with 2 samples.

Results

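The regions described here are the 770 of 30000 pooled chromatin immunoprecipitation regions whose summit lay in a coding exon or a 3' UTR, more than 500 bp from every annotated transcript start, on the chromosome arms 2L, 2R, 3L, 3R, 4 and X. Of them, 270 (0.900% of the pooled list) had their summit in a coding exon and 500 (1.67%) in a 3' UTR outside coding sequence. The summit is the base that the authors' list marks as the high point of a region. The choice used position only, so it made no use of signal, of presence in each replicate or of acceptance by the authors. The authors label the pooled list as peaks and background, so a listed region is not by itself a site of binding. Of the 770, 67 (8.70%) entered their accepted list, against 23.9% of all pooled regions.

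The study mapped where the protein made from CG7556, fused to GFP at its C-terminal end and carried by a transgenic line of Drosophila melanogaster, was held on chromatin. Whole embryos of both sexes, 0 to 24 h old, gave 2 biological replicates of this single group, precipitated with an antibody against GFP after sonication to 200 to 800 bp. Whole embryos of this age mix all embryonic cell types, the sources used here name no promoter for the fusion, and the control was not analysed here. With 1 group of 2 replicates no test between samples is possible, and regions are not replicates, so the values below are descriptions with exact (Clopper-Pearson) 95% intervals that cover counting error only.

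A coding exon is the part of a transcript that is translated, and a 3' UTR follows the stop codon and holds the signals for cleavage, polyadenylation and mRNA fate. Many proteins that bind chromatin are found at promoters and at enhancers in introns or between genes, whereas coding sequence is constrained by the protein it encodes. Fragments reach past an exon, so a summit in one does not by itself place the contact inside it.

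The sequences under some of the summits of highest signal show the kinds of DNA involved. Of the 12 coding summits that entered the authors' accepted list, 11 are printed first, without that of otp, the highest, whose window is not shown; each is given as 29 bases on the strand of its gene with the codon that holds the summit in capitals. The bases come from the RefSeq Release 6 assembly, which has the coordinates of dm6.
Pde1c, chr2L:11816557-11816585, minus strand: ggagccggcagatGGCgctgcggcctaag
bif, chrX:11681764-11681792, plus strand: catgatcggttcaGAGgaaaagtctgaga
Socs36E, chr2L:18141774-18141802, minus strand: cgagtcgctgccaGTCagcaatatgttgt
CG10357, chr3L:3616532-3616560, plus strand: aggaactcacatTTCtgattttacttgtc
l(3)mbn, chr3L:6124826-6124854, minus strand: cgggaatttctggaGTGacagcgaataca
CG1632, chrX:8271928-8271956, plus strand: gttcattttcagCAAgaggagtattcggg
klar, chr3L:506215-506243, minus strand: agacgacctctggGCGgccattcaaacga
Ggt-1, chrX:18507520-18507548, minus strand: atggcaccgcccacATGaatgtcttggcc
CG1737, chrX:11351734-11351762, plus strand: agcgttaagaagACAcgtaattgcatcgt
scrib, chr3R:26567117-26567145, plus strand: ccacggccaacaatGTAaaggcagcaaca
CG33181, chrX:8492000-8492028, plus strand: aatgagacccgcATGcgccgccggcccat
The GC content of these 11 windows, otp not among them, ran from 34.5% at CG10357 to 72.4% at Pde1c. The Pde1c and CG10357 windows run through the stop codon into the 3' UTR, and the CG1632 window opens in the intron before the exon.

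The 3 highest 3' UTR summits are printed for comparison, with the summit base in capitals.
stas, chrX:17625047-17625075, minus strand: agtaataaaataacGtatacgcaatgtta
Cals, chr4:1113283-1113311, minus strand: gtattcagagctacActttatttcttata
scf, chr3L:1300338-1300366, plus strand: tagagtttagttgcAacatgttcaataaa
The GC content was 24.1% at stas and 27.6% at both Cals and scf, below each of the 11 coding windows printed. The letters AATAAA, those of the polyadenylation hexamer, stand in the stas and scf windows on the gene's strand and in the Cals window on the other strand.

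Coding exon regions had lower signal than 3' UTR regions, and both had lower signal than the remaining regions. Signal is the authors' own value per region, whose scale is not stated, and serves only to rank and describe regions within a list. The median pooled signal was 31.4 in the 270 coding exon regions (middle 50% from 25.3 to 43.0, lowest 22.2, highest 897). In the 500 3' UTR regions it was 43.1 (middle 50% from 29.0 to 73.5, lowest 22.3, highest 713). The 29230 remaining regions had a median of 63.9, and the 19830 of them that also lay more than 500 bp from starts had 57.3. Signal was under the median of the whole list, 62.9, in 233 coding exon regions (86.3%) and 345 3' UTR regions (69.0%). Among the other positions, medians were 53.3 in 5' UTRs, 62.5 in non-coding exons, 57.5 in introns, 56.5 between genes and 81.5 at promoters. Coding exons therefore had the lowest median of the 7 positions and 3' UTRs the next, with wide overlap between all of them.

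**Figure D1:**
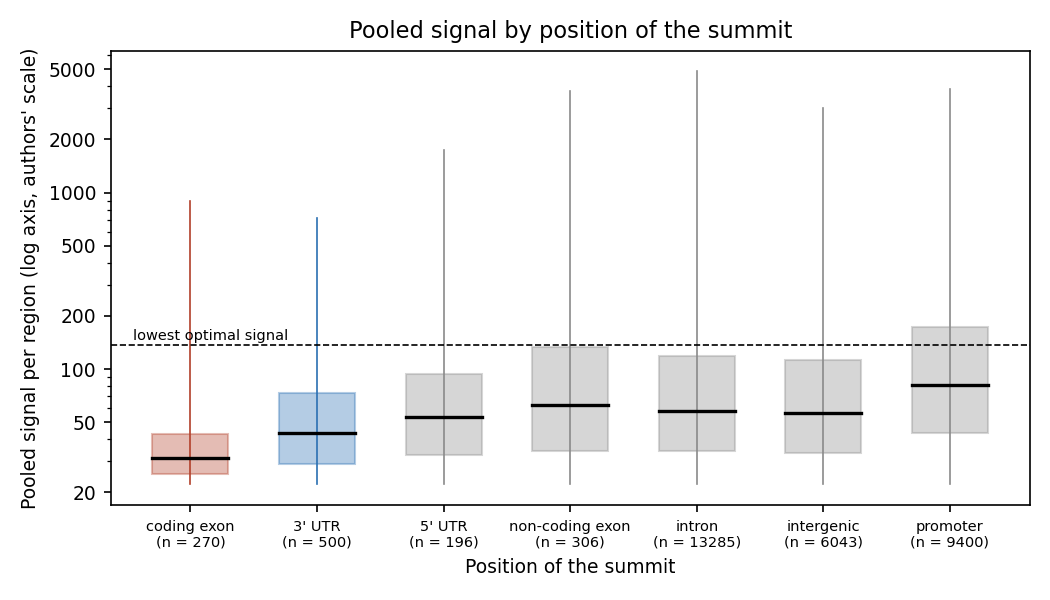
Pooled signal per region (log axis, authors' scale) by the position of the summit, for coding exons, 3' UTRs, 5' UTRs, non-coding exons, introns, intergenic sequence and promoters, with the number of regions under each. Thick lines are medians, boxes the middle 50% and thin lines the range. The coding exon box (25.3 to 43.0) and the 3' UTR box (29.0 to 73.5) both lie under the dashed line at 137, the lowest signal in the optimal list.

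The same rule applied to each replicate's own list gave the same order. In replicate 1 the median was 17.7 over 469 coding exon regions, 22.9 over 494 3' UTR regions and 35 over the remainder, where the lowest listed signal was 13.4. In replicate 2 it was 21.4 over 326 coding exon regions, 27 over 512 3' UTR regions and 36.9 over the remainder, where the lowest listed signal was 15.6. The ratio of the coding exon median to the 3' UTR median was 0.775 in replicate 1, 0.795 in replicate 2 and 0.729 in the pooled list. Replicate 1 thus listed more coding exon regions than replicate 2, while the numbers of 3' UTR regions were close.

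Few of the regions reached the authors' optimal list, the 7184 regions that passed their reproducibility threshold (irreproducible discovery rate). That list held 12 coding exon regions (4.44%, interval 2.32% to 7.63%) and 55 3' UTR regions (11%, interval 8.39% to 14.1%), against 23.9% of all pooled regions and 20.9% of the remaining regions more than 500 bp from starts. The optimal regions were exactly the 7184 of highest pooled signal, so this share restates the signal and is no separate evidence. The accepted coding region of lowest signal lay in CG33181 (141.6) and the first one left out in l(1)G0196 (136.6). For 3' UTRs the pair was CG3308 (137.7) and laza, a lipid phosphate phosphatase of photoreceptors (135.8). Among the 7184 highest regions of each replicate's own list, coding exons had 9 (1.92% of its coding exon regions) in replicate 1 and 16 (4.91%) in replicate 2, and 3' UTRs had 50 (10.1%) and 49 (9.57%).

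A region was counted as found in a replicate when that replicate's list had a summit within 100 bp. Both replicates held 62 coding exon regions (23.0%, interval 18.1% to 28.4%) and 198 3' UTR regions (39.6%, interval 35.3% to 44.0%), against 54.9% of all pooled regions. Replicate 1 held 119 coding exon regions (44.1%) and 293 3' UTR regions (58.6%), against 71.8% of all. Replicate 2 held 151 coding exon regions (55.9%) and 332 3' UTR regions (66.4%), against 74% of all. Neither replicate held 62 coding exon regions (23.0%) and 73 3' UTR regions (14.6%), against 8.97% of all. These regions were listed from the pooled reads alone at that matching distance.

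At like signal the difference between the classes was small. Between the lowest signal, 22.2, and 35.8, both replicates held 7 of 167 coding exon regions (4.19%) and 6 of 194 3' UTR regions (3.09%), against 6.58% of the remaining regions. From 35.8 to 62.9 the share was 36.4% of 66 coding exon regions and 38.4% of 151 3' UTR regions, against 41.4%. From 62.9 to 131 it was 75% of 24 and 82.5% of 97, against 77.6%, and above 131 it was 100% of 13 and 93.1% of 58, against 94.1%. The intervals of coding exons and 3' UTRs overlapped in every range. The classes differed more in how they spread over the ranges: 61.9% of coding exon regions and 38.8% of 3' UTR regions lay in the lowest, and 4.81% and 11.6% in the highest.

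**Figure D2:**
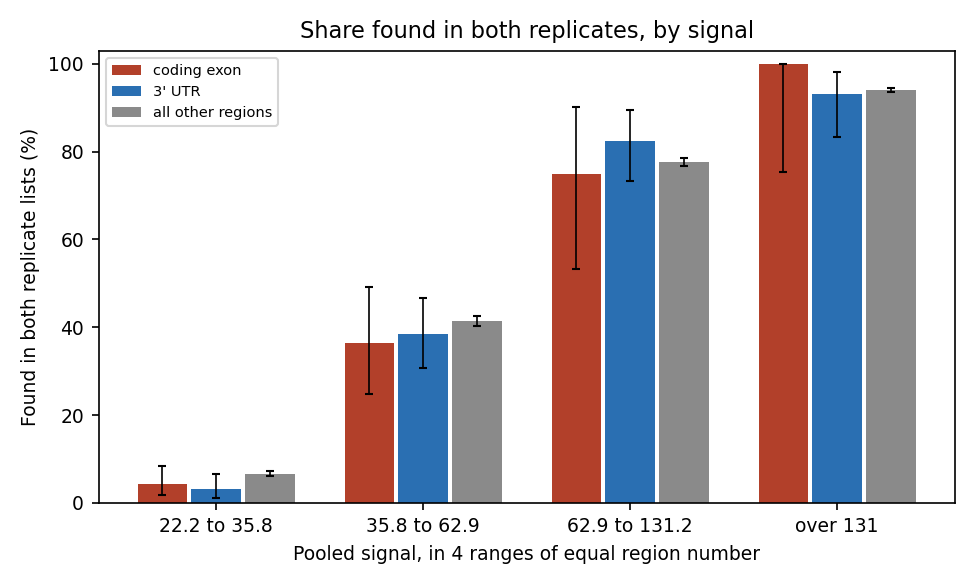
Share of regions with a summit within 100 bp in both replicate lists (percent), in 4 ranges of pooled signal that hold equal numbers of all pooled regions, for coding exons, 3' UTRs and all other regions. Error bars are exact 95% binomial intervals. In the lowest range the shares are 4.19%, 3.09% and 6.58%, and in the highest 100%, 93.1% and 94.1%.

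Where both replicates held a summit, the median ratio of replicate 1 to replicate 2 signal was 0.923 over 62 coding exon regions (5th to 95th percentile 0.567 to 1.83). Over 198 3' UTR regions it was 0.929 (0.440 to 2.06), and over all other matched regions 1.02. The remaining regions spread from 0.431 to 2.03, a width like that of the 3' UTR regions, and both classes in exons had medians slightly towards replicate 2.

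**Figure D3:**
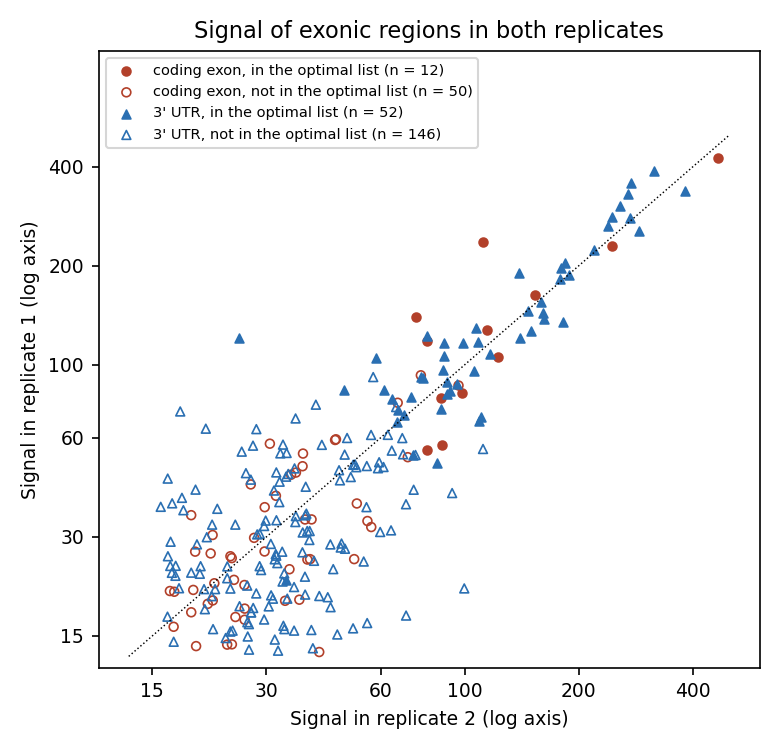
Signal in replicate 1 against signal in replicate 2 (both log axes) at the 62 coding exon regions (circles) and 198 3' UTR regions (triangles) matched in both replicates, filled where the region is in the optimal list. The dotted line marks equal signal. The point at the upper right is otp with 424 and 467, and the filled triangle far above the line is the second CG33307 summit with 121 and 25.4.

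All 12 accepted coding exon regions were matched in both replicates, against 94.1% of the regions outside both classes with signal above 131. The highest lay in otp, which encodes the homeodomain protein Orthopedia, at 20884586 on 2R in exon 8 of 8, with a pooled signal of 897, 424 in replicate 1 and 467 in replicate 2. It ranked 418 in the whole list, was the only summit in its stretch of overlapping regions, and lay 4656 bp from the nearest start, that of Cib2.

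The next lay in Pde1c, a calcium- and calmodulin-dependent cyclic nucleotide phosphodiesterase, at 11816571 on 2L (479; 230 in replicate 1 and 245 in replicate 2). It stood 99.6% along the coding sequence, in the last exon. In CG10357, at 3616546 on 3L (244; 128 in replicate 1 and 114 in replicate 2), the summit was also at the very end, 99.7% along. The windows printed above show how both reach the stop codon.

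In bif, whose product Bifocal binds the actin cytoskeleton in photoreceptors, the summit at 11681778 on X had 312, with 163 in replicate 1 and 153 in replicate 2. It lay 2808 bp from the nearest start, in exon 3 of 6. In klar, needed for nuclear migration and lipid droplet transport, the summit at 506229 on 3L had 177, with 82.3 in replicate 1 and 98.3 in replicate 2, in exon 3 of 19. In scrib, a scaffold of epithelial polarity, the summit at 26567131 on 3R had 148, with 56.9 in replicate 1 and 87.3 in replicate 2, in exon 7 of 26. The replicates were close at bif and klar, and replicate 2 was the higher at scrib.

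For 3 accepted coding summits the overlapping stretch held a higher summit in an intron. Socs36E, a negative regulator of JAK/STAT signalling, had 263 at 18141788 on 2L beside an intronic summit of 437, and its replicates differed most of the 12, with 236 in replicate 1 and 112 in replicate 2. Ggt-1, a gamma-glutamyl transpeptidase, had 165 at 18507534 on X (139 in replicate 1 and 74.5 in replicate 2) beside an intronic summit of 408. CG1737 had 155 at 11351748 on X (79.4 in replicate 1 and 86.8 in replicate 2) beside one of 572. The signal of these 3 cannot be told apart from that of the neighbouring intron at the fragment sizes used.

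The other accepted coding summits lay closer to starts or splice sites. In l(3)mbn the summit at 6124840 on 3L (227; 106 in replicate 1 and 122 in replicate 2) stood in an exon of 63 bp, 558 bp from a start of an antisense RNA. In CG1632 it stood at 8271942 on X (205; 118 in replicate 1 and 79.3 in replicate 2), 2 bp from the edge of the coding segment and 533 bp from the start of Corp. In CG33181 it stood at 8492014 on X (142; 54.9 in replicate 1 and 79.6 in replicate 2), in an exon of 83 bp that another transcript of the gene places in an intron. The remaining 258 coding exon regions had signals of 22.2 to 137, with a median of 30.8.

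The 3' UTR regions of highest signal were matched closely by the replicates. In stas the summit at 17625061 on X had 713, with 337 in replicate 1 and 380 in replicate 2, and another stas transcript places it in an intron. On chromosome 4 the summit at 1113297 had 698, with 387 in replicate 1 and 316 in replicate 2. There the 3' UTR of Cals, a calsyntenin of the cadherin family, meets on the opposite strand that of sv, which encodes a Pax-family transcription factor. In scf, which encodes a calcium-binding protein, the summit at 1300352 on 3L had 631, with 356 in replicate 1 and 274 in replicate 2, only 37 bp from the gene's end.

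CG33307 held a pair of accepted summits, and they differed in how well the replicates matched. The higher, at 13839916 on 2L, had 593, with 331 in replicate 1 and 269 in replicate 2. The other, at 13840116, had 236, with 121 in replicate 1 and 25.4 in replicate 2, the largest ratio of replicate 1 to replicate 2 among the 260 matched regions (4.75). Both also lie in an intron of CenG1A.

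The next were CG5984 at 27246456 on 3R with 560 (280 in replicate 1 and 272 in replicate 2) and CG9837 at 8808634 on 3R with 558 (304 in replicate 1 and 256 in replicate 2). CG7872 on X had 543 (254 in replicate 1 and 288 in replicate 2) and CG14440 on X had 515 (281 in replicate 1 and 244 in replicate 2). Ppa, an F-box protein, had 498 at 22686520 on 2R (264 in replicate 1 and 239 in replicate 2) and a further accepted summit of 413 at 22686722. In by, the Drosophila tensin that links integrins to actin, the summit at 9528626 on 3R had 460 (224 in replicate 1 and 219 in replicate 2). The last 4 of these genes have a single exon in the transcript used.

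Of the 55 accepted 3' UTR regions, 52 (94.5%) were matched in both replicates, near the 94.1% of regions outside both classes with signal above 131. The summits in corto (99.0 in replicate 1) and Ptp4E (72.5 in replicate 1) had none within 100 bp in replicate 2, and that in CG9166 (105 in replicate 2) had none in replicate 1. The remaining 445 3' UTR regions had signals of 22.3 to 136, with a median of 39.2.

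The regions were sparse for the sequence available to them, and sparser in coding exons. After removal of everything within 500 bp of a start, 18.5 Mb of coding exon and 5.82 Mb of 3' UTR remained. Coding exons held 14.6 summits per Mb and 3' UTRs 86.0, against 228 per Mb in the 87.1 Mb of other sequence more than 500 bp from starts. For accepted summits the values were 0.649 per Mb in coding exons and 9.46 in 3' UTRs, against 47.7 elsewhere. The ratio of coding exon to 3' UTR density was 0.170 in the pooled list, 0.299 in replicate 1 and 0.200 in replicate 2.

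The order held on each of the 5 large arms. On X the density was 19.3 per Mb in coding exons and 102 in 3' UTRs, and on 2R it was 11.5 and 105. On 2L it was 15.1 and 62.1, on 3L 15.9 and 81.2, and on 3R 12.9 and 80.0. Chromosome 4 had no coding summit in 0.228 Mb, and a single 3' UTR summit, the one shared by Cals and sv. With 3 counts taken as the upper limit of a count of 0, up to 13.2 coding summits per Mb are allowed there. This limit is not the exact interval used for the shares. Of the 12 accepted coding summits 5 lay on X, and of the 55 accepted 3' UTR summits 16 did. Of the 4152 accepted summits elsewhere more than 500 bp from starts, 817 lay on X. That arm had 3.31 of the 18.5 Mb of eligible coding exon and 1.37 of the 5.82 Mb of eligible 3' UTR.

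**Figure D4:**
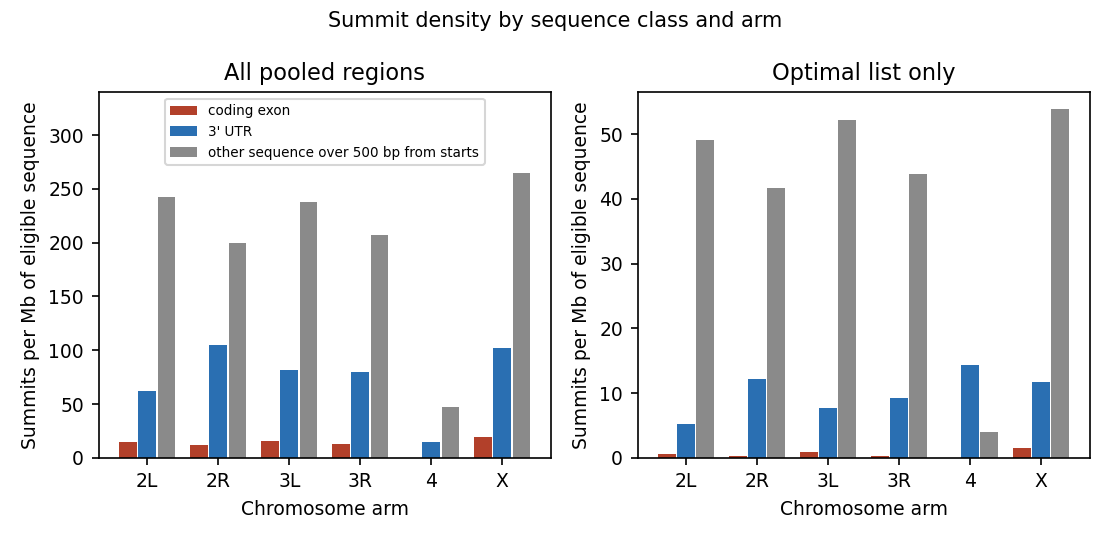
Summits per Mb of eligible sequence on each chromosome arm for coding exons, 3' UTRs and other sequence more than 500 bp from starts (axis from 0). The left panel shows all pooled regions and the right panel the optimal list only. On the left, coding exon bars run from 0 on chromosome 4 to 19.3 on X and 3' UTR bars from 14.4 on chromosome 4 to 105 on 2R. On the right, the highest coding exon bar is 1.51 on X and the highest 3' UTR bar 14.4 on chromosome 4, from a single summit.

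The order of the classes was the same at each distance from starts. From 501 to 1000 bp, the median signal was 34.0 over 88 coding exon regions and 40.1 over 98 3' UTR regions, against 68.2 over the remaining regions at that distance. From 1001 to 2000 bp it was 30.3 over 84 and 43.9 over 196, against 58.9, and beyond 2000 bp it was 30.2 over 98 and 43.4 over 206, against 54.6. Coding exons were the lowest and 3' UTRs between them and the remainder in each range. Just past the 500 bp limit, from 501 to 550 bp, 11 coding exon summits ran up to 205 and 22 3' UTR summits up to 195. Just inside it, from 451 to 500 bp, 18 coding exon summits ran up to 164 and 7 3' UTR summits up to 244. The nearest start belonged to another gene in 86 coding exon regions (31.9%) and 295 3' UTR regions (59.0%). These shares were not computed for the eligible bases of each class.

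Within genes, coding summits lay early and near the edges of coding segments more often than the eligible bases did. In the same way, 3' UTR summits lay late more often. When each coding sequence was cut into 3 equal lengths, the first held 45.6% of coding summits, the middle 26.3% and the last 28.1%, against 25.5%, 37.0% and 37.6% of the eligible coding bases. A segment edge was under 50 bp away for 107 coding summits (39.6%), against 20.4% of eligible coding bases. Segment edges are the ends of the coding part of an exon, so they include start and stop codons. Among the 12 accepted ones 7 were that close. Exons of at least 1 kb held 34.8% of coding summits, against 49.1% of eligible bases.

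In 3' UTRs the first, middle and last lengths held 23.2%, 33.0% and 43.8% of summits, against 32.9%, 33.5% and 33.6% of eligible bases. Segment edges were under 50 bp away for 15% of summits, against 15.7% of bases, so the closeness to edges was not seen there. The last exon of the transcript held 97.2% of 3' UTR summits, and 266 (53.2%) lay within 500 bp of the annotated end of the gene. The median distance from that end was 424 bp over all 3' UTR summits. A 3' UTR lies at the end of its transcript, and these values were not computed for the eligible bases. The base comparison uses 1 transcript per gene, the one with the longest coding sequence or 3' UTR.

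**Figure D5:**
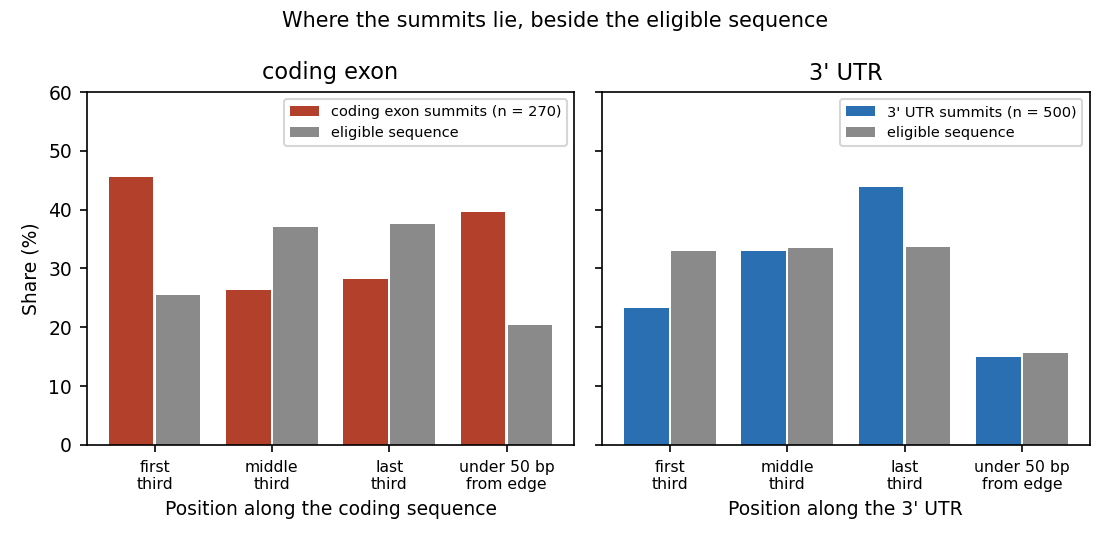
Share of coding exon summits and of 3' UTR summits (percent) in the first, middle and last of 3 equal lengths of their coding sequence or 3' UTR, and under 50 bp from a segment edge, beside the share of eligible bases there in grey. Coding summits lead in the first length (45.6%, against 25.5% of bases) and 3' UTR summits in the last (43.8%, against 33.6%).

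Transcript models differ in what they place at a summit. Every transcript covering the summit gave the same class for 203 coding exon regions (75.2%) and 416 3' UTR regions (83.2%). Some transcript had an intron there in 53 coding exon regions, with a median signal of 36.3, and in 84 3' UTR regions, with a median of 47.6. Genes with a single exon in the transcript used held 15 coding exon regions (median 26.2, none accepted) and 66 3' UTR regions (median 53.0, 12 accepted). For 17 3' UTR summits the sequence belonged to 2 genes, and in 10 of these the 3' UTRs lay on opposite strands, among them Cals with sv, Myc with CG12535, and CG3308 with Idi, an isopentenyl diphosphate isomerase.

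Alone in their stretch were 150 coding exon regions (55.6%), with a median signal of 29.1, and 242 3' UTR regions (48.4%), with a median of 35.7, against 39.7% of all pooled regions. A higher summit of the same stretch stood beside 84 coding exon regions (31.1%) and 148 3' UTR regions (29.6%), shares near the 31.5% of all pooled regions. For coding exons it stood in an intron for 42, in a coding exon (the same one or another) for 18 and at a promoter for 15. For 3' UTRs it stood in the same class for 86, between genes for 25 and at a promoter for 23. The 110 3' UTR regions that were the highest of a shared stretch had a median of 73.8, and 31 of them were accepted.

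The regions fell in 587 genes. Coding summits were found in 241 of the 12369 genes with eligible coding sequence (1.95%) and 3' UTR summits in 386 of the 11032 genes with eligible 3' UTR (3.5%), and 40 genes had both. More than 1 summit was held by 25 genes in coding exons and by 92 in 3' UTRs. Most were held by corto, which encodes a chromatin protein that binds Polycomb-group and trithorax-group proteins. Its long 3' UTR had 7 summits of 27.1 to 168, 1 of them accepted.

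The neuronal RNA-binding protein gene elav had 6 3' UTR summits of 29.8 to 110, and Cam, the calmodulin gene, had 6 of 24.7 to 76.5, none accepted in either. The tropomyosin gene Tm1 had 4 coding summits of 24.8 to 48.0 and a 3' UTR summit of 30.7. In bif, the highest in signal of the genes with 4 summits, 3 coding summits had 312, 114 and 45.2, and the 3' UTR summit 30.3. Only the highest of these bif summits was in the optimal list.

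Among 15 gene lists, highly transcribed housekeeping genes had the largest shares in both classes. Coding summits were found in 3 of 24 of these genes (12.5%, against 1.95% of all) and 3' UTR summits in 7 of 24 (29.2%, against 3.5%). Their 19 3' UTR summits, in 19.9 kb of eligible sequence, came to 953 per Mb, against 89.9 over all protein-coding genes. Cam held 6 of the 19, and Act5C, 14-3-3zeta and 14-3-3epsilon held 3 each. The median signal of the 19 was 46.6, against 43.1. The highest was in chic, the profilin gene, with 168 (79.7 in replicate 1 and 72.2 in replicate 2). It was the only summit of this list's genes, in either class, that was in the optimal list. Cytoplasmic ribosomal protein genes had coding summits in 2 of 60 (3.33%) and 3' UTR summits in 7 of 70 (10.0%), the highest in RpS23 with 112.

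Signalling, RNA-binding, muscle and adhesion genes also had shares above those of all genes with eligible sequence (1.95% for coding exons and 3.5% for 3' UTRs), on few genes each. Genes of the EGFR, Wingless, Hedgehog and Dpp pathways had coding summits in 3 of 40 (7.5%) and 3' UTR summits in 5 of 40 (12.5%), the highest in rdx, a BTB adaptor that targets Cubitus interruptus for degradation, with 61.7. RNA-binding and mRNA fate genes had 1 of 32 (3.12%) and 3 of 32 (9.38%), led by elav with 110. Muscle sarcomere genes had 1 of 24 (4.17%) and 3 of 22 (13.6%), led by TpnC73F, a troponin C, with 105. Axon guidance and adhesion genes had 3 of 36 (8.33%) and 2 of 36 (5.56%), led by the accepted 3' UTR summit of rst, an immunoglobulin-family adhesion protein, with 216 (116 in replicate 1 and 99.1 in replicate 2).

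The other lists held 0 to 2 genes per class, against the same 1.95% and 3.5% of all genes. Segmentation and axis patterning genes had coding summits in 0 of 41 and a 3' UTR summit in 1 of 39 (2.56%), the gap gene Kr with 49.0. Polycomb, trithorax and insulator genes had 1 of 30 (3.33%) in each class, led by Su(z)2 with 58.8. Notch pathway genes had 1 of 20 (5%) and 1 of 23 (4.35%), led by E(spl)mgamma-HLH with 27, and zinc finger and BTB genes had 1 of 35 (2.86%) in each class, led by jing, in coding sequence, with 97.0. Chemosensory receptors had 2 of 180 (1.11%) and 1 of 47 (2.13%), led by the coding summit of Gr89a with 86.6. Heat shock and chaperone genes had 1 of 25 (4%) and 0 of 19, the coding summit of Hsc70-3, the BiP chaperone, with 22.3. The Hox, histone and cuticle protein lists held no summit of either class. Over all the lists, only chic, NetB and rst held a summit in the optimal list. These counts carry no test, and the lists differ in how much eligible sequence their genes have. The lists were chosen with earlier results of these data known.

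Base composition followed the class of sequence. In windows of 201 bp around the summit the median GC content was 53.2% in coding exon regions and 36.3% in 3' UTR regions, against 37.3% over all pooled regions. The eligible sequence itself had 53.4% in coding exons and 35.3% in 3' UTRs, so each class was close to the sequence it was drawn from. The accepted regions had lower medians, 48.8% for the 12 coding ones and 33.8% for the 55 in 3' UTRs.

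Short motifs were counted on both strands of the same windows. CAGCAGC, the letters of the opa repeat, was in 22.2% of coding exon windows and 3.4% of 3' UTR windows, against 5.05% of all pooled windows. AATAAA was in 11.5% of coding exon windows and 49.6% of 3' UTR windows, against 45%. On the strand of the gene AATAAA was in 3.70% of coding exon and 35% of 3' UTR windows, and on the other strand in 7.78% and 25%. AAAAAAA was in 4.44% and 23.0%, against 23.2%, TATATAT in 3.70% and 17.0%, against 12%, and CACACAC in 1.48% and 10.2%, against 8.32%.

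Of the letters known as factor sites, GAGAG was in 23.3% of coding exon windows and 20.8% of 3' UTR windows, against 22.1%, and GAGAGAG, which contains it, in 0.741% and 3.0%, against 3.61%. GCCAT, the Pho core, was in 40.0% and 26.2%, against 29.4%, and CAGCTG, an E-box, in 14.1% and 8.0%, against 8.05%. TATCGAT, the DRE core, was in 0.741% and 1.2%, against 4.18%, and CGATA, which its reverse complement contains, in 20.4% and 23.4%, against 23%. CACGTG was in 2.59% and 2.2%, against 2.17%, and AGATAAG in 2.22% and 3.6%, against 3.01%. CAGGTAG was in none of 270 coding exon windows, which allows up to 1.36% by the exact interval, and in 0.8% of 3' UTR windows, against 0.84%. TCAGT was in 23.7% and 28.0%, against 32.3%, and GGTAAGT, the letters of a splice donor, in 3.70% and 0.6%, against 1.36%. Coding and 3' UTR sequence differ in composition, and how far that sets these shares was not tested.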

How the data were processed

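The members of the 2 classes, the gene lists and the motifs were chosen with earlier results of these data known. Per the deposited description files, the authors called regions against a control for each replicate and for both pooled (30000 regions each) and kept 7184 by irreproducible discovery rate. The lists of 30000 are labelled as peaks and background, the input to that step. No aligner, caller or threshold is named in the sources used here. Each deposited region has 1 signal value, of unstated scale, and the other deposited value used is the summit offset. The deposited lists carry no read counts, so depth is unknown and precision rests on the number of regions.

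Summits on build dm6 were placed with Ensembl release 115 (29371 start sites, transposable elements and pseudogenes included), coding exon before 3' UTR. Of the coding summits, 10 lie also in a 5' UTR and 7 also in a 3' UTR of another transcript. Overlapping regions were merged into stretches. 2 regions of replicate 1 off the arms were left out. The names given are those of the 10 highest regions per class, all accepted coding regions, the 5 genes with most summits, the leading member of each gene list and the regions either side of the acceptance limit; the unmatched accepted regions, the opposite-strand pairs and neighbouring genes were added after their values were seen. Symbols out of date in the lists were replaced by current ones. Python 3.11.15, numpy 2.4.6, pandas 2.3.3, scipy 1.17.1 and matplotlib 3.10.9 were used, and the placement and matching code was tested on simulated regions. The replicates are biological per the labels. Alternatives were other start distances, matching rules, thresholds and each replicate alone.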

Additional observations from a re-analysis of the deposited data

How the results depend on the processing

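Of 92 alternative values, 66 moved little and 26 moved. A share moved little inside the exact interval of its main value, and a ratio within the SD of the 2 single-replicate values. The limit for counts was wide. Coding exon regions numbering 182 with a 1000 bp distance and 186 with 1 summit per stretch, against 270, moved little by it. Only the ratios were scored for a change of direction, and 0 changed. In each comparison of the 2 classes, coding exons were below 3' UTRs under every alternative. Coding exon regions numbered 431 with a 200 bp start distance and 326 to 469 from 1 replicate alone. They numbered 165 with summits at least 50 bp inside a coding segment of at least 1 transcript. The ratio of medians was 0.691 with a 1000 bp distance, 0.756 with 200 bp, 0.692 with 1 summit per stretch, and 0.775 to 0.795 from 1 replicate. The share found in both replicates was 13.3% of coding exon and 26.6% of 3' UTR regions within 50 bp, 35.2% and 52.4% within 200 bp, 50.4% and 65.6% by an overlap of 1 bp, and 42.2% and 57.8% by an overlap of 50%; in 1 replicate it was 44.1% to 55.9% and 58.6% to 66.4%. The share in the optimal list was 1.85% and 4.2% for its 3592 highest regions and 11.1% and 17.6% by an overlap of 1 bp; of 1 replicate's own coding exon regions, 1.92% to 4.29% lay within 100 bp of an optimal summit. The density ratio was 0.200 to 0.299 from 1 replicate. The cause of these moves was not tested beyond what each setting changes. No paired analysis was possible because there is only 1 group.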
